A study of Homo sapiens with 16 samples.

Results

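The 10 genes described here encode enzymes of glycolysis and both subunits of lactate dehydrogenase, namely GPI, ALDOA, TPI1, GAPDH, PGK1, PGAM1, ENO1, PKM, LDHA and LDHB. They were taken by symbol from the 60623 genes listed for each library, and each symbol matched exactly 1 gene. The libraries came from Caco-2, a human intestinal epithelial tumour line, and HepG2, a human liver tumour line, grown in a microfluidic gut-liver chip. There were 16 PCR-cDNA Nanopore libraries in 8 groups of 2, and the groups were Caco-2 mono-culture control, Caco-2 mono-culture FFA, Caco-2 co-culture control, Caco-2 co-culture FFA, and the same 4 conditions for HepG2. In co-culture, each line shared circulating medium with the other line and was harvested from its own chamber. FFA cultures received palmitic and oleic acid at a total of 1 mM, and control cultures received no free fatty acid. The FFA medium held albumin freed of fatty acid, and whether controls received the same albumin is not given in the sources used here. The labels of the FFA libraries place sampling 1 day after treatment, and those of the control libraries give no day. Every library title begins with LTC, a prefix that the paper does not spell out. The study also describes cultures sequenced after a longer exposure. The exposure given here is that of the FFA labels, and whether it applies to these libraries was not tested. Both lines are tumour lines grown on a chip, so each group is a model of 1 line and not of gut or liver tissue.

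Glycolysis converts glucose to pyruvate in the cytosol and yields ATP and NADH. Lactate dehydrogenase then interconverts pyruvate and lactate and returns NADH to NAD+. The enzyme is a tetramer of A subunits (LDHA), which favour lactate formation, and B subunits (LDHB), which favour the oxidation of lactate. Liver cells can run most of these steps in reverse during gluconeogenesis, and several glycolytic promoters carry hypoxia response elements or E-boxes.

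Each value is a gene's level in CPM, its reads scaled to a library total of 1000000 reads assigned to genes, and whole reads could be recovered from it. CPM is not corrected for length, so a level is compared here between libraries and not between genes. Totals were 353871 to 974654 reads in the Caco-2 libraries and 49634 to 1657430 in the HepG2 libraries. The HepG2 co-culture FFA libraries were the shallowest, at 147096 and 49634 reads, so that 1 read stood for 6.80 and 20.1 CPM there. Genes of the mitochondrial genome took 2.73% to 3.97% of reads in Caco-2 and 6.29% to 10.6% in HepG2. Of 15 hepatic marker genes, 12 were higher in every HepG2 library than in every Caco-2 library, and their summed level in Caco-2 was 14.4% to 20.6% of the HepG2 mean. Of 16 intestinal marker genes, 4 were higher in every Caco-2 library, CDX1 and ISX had no reads in Caco-2, and the summed level in HepG2 was 49.3% to 110% of the Caco-2 mean. TFF3 was the highest of the 16 in both lines, at a mean of 102 CPM in Caco-2 and 118 CPM in HepG2. In all, 7 markers had reads in Caco-2 and 0 in every HepG2 library, all but CDH17 below 20 CPM. FABP2 was higher in every HepG2 library. Both libraries of a group are taken as separate samples, and since the labels do not tie them to separate cultures, p-values measure the spread between these libraries. In bulk libraries fewer cells of a kind and less RNA per cell cannot be told apart.

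Copies and overlapping genes could share reads with the members. The 101 listed processed copies of the members held 106 reads, or 0.180% of the 59034 reads of the members. A read-through gene annotated over LDHB, AC010197.2, held 6660 reads against 6712 for LDHB and differed from it by at most 13 reads in a library. AC093512.2, annotated over ALDOA, held 5890 reads against 5918 for ALDOA, and AC092073.1, over GPI, held 680 reads against 1168 for GPI. Values of LDHB, ALDOA and GPI are therefore values of a locus shared with a read-through gene, and reads of the paired genes cannot be told apart here.

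The members lie on 8 chromosomes, and GAPDH, TPI1 and LDHB share chromosome 12. On GRCh38, LDHA spans chr11:18394560-18408425 on the plus strand, LDHB spans chr12:21635342-21757857 on the minus strand, and ENO1 spans chr1:8861000-8879190 on the minus strand. Promoters of these 3 genes are shown because LDHB differed most between the lines, LDHA is its partner subunit and ENO1 was the only member higher in HepG2. The sequences are RefSeq windows of 300 bases on GRCh38.p14, from 250 before to 50 after a transcription start, at chr11:18394313-18394612 for LDHA, chr12:21657793-21658092 for LDHB and chr1:8878637-8878936 for ENO1. Each is written 5′ to 3′ on the gene's strand, and capitals mark ACGTG or GCGTG, the cores of the hypoxia response element, on either strand (reverse complements CACGT and CACGC).
LDHA: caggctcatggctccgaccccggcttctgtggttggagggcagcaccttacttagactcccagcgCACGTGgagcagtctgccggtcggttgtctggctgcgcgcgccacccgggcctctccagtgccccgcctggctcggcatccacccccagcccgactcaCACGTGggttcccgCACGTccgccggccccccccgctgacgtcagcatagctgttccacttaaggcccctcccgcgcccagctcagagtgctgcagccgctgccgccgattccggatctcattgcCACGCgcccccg
LDHB: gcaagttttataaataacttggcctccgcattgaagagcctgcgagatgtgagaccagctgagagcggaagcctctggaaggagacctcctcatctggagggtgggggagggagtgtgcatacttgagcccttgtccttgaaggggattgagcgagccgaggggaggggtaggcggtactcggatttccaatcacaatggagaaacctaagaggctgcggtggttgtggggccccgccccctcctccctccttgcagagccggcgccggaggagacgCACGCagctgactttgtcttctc
ENO1: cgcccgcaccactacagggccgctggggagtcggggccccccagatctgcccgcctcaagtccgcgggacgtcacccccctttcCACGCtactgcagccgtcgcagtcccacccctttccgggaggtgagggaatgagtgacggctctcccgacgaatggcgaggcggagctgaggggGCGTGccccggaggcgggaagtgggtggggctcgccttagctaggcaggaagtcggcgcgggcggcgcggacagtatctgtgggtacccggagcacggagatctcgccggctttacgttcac

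The LDHA window shown held 4 separate stretches with a core, 2 of which were the palindrome CACGTG (an E-box, which contains ACGTG on both strands), whereas the ENO1 window held 2 stretches and the LDHB window held 1. RefSeq gives LDHA a second window, at chr11:18396101-18396400, which held 1 stretch and no CACGTG. CpG dinucleotides numbered 29 in the LDHA window shown, 32 in the ENO1 window and 14 in the LDHB window, and 14 was also the median of all 35116 promoter windows. Over the 14 windows of the 10 members, ACGTG was present in 8 windows and 6 members, and it was present in 21.4% of all windows. GCGTG was present in 7 of the 14 windows against 36.5% of all windows, and CACGTG in 3 against 7.26%. The GC box GGGCGG was present in 10 of the 14 windows against 45.0% of all windows. The member windows had a median GC content of 68.8%, against 58.7% for all windows. These matches are descriptions of letters in a window, and no factor binding was measured.

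LDHB was almost absent from HepG2 and abundant in Caco-2. LDHB ranged from 1183 to 1589 CPM in the 8 Caco-2 libraries, with a median of 1370 CPM. In HepG2, LDHB was 2.32 and 4.89 CPM in mono-culture control, 2.36 and 3.64 CPM in mono-culture FFA, 6.03 and 1.06 CPM in the co-culture controls, and 0 in both co-culture FFA libraries. The ranges of the lines did not come near each other. Over all libraries, 6693 of 4888028 Caco-2 reads and 19 of 4953377 HepG2 reads were assigned to LDHB, so the pooled level was 357-fold higher in Caco-2, with an exact 95% interval of 228 to 593 that covers counting error only. On the log2(CPM + 1) scale the difference of HepG2 from Caco-2, averaged over the 4 conditions, was -8.92 ± 0.23 (SE; limma adjusted p = 2.5e-12). Only 2 HepG2 libraries held more than 3 LDHB reads, the floor of detection used here, so differences in LDHB among HepG2 groups were not read.

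LDHA had overlapping levels in the lines, and nearly all reads of the pair were LDHA reads in HepG2. LDHA ranged from 288 to 397 CPM in Caco-2 (median 311 CPM) and from 257 to 449 CPM in HepG2 (median 304 CPM). These ranges overlapped, and the averaged log2 difference was -0.03, with a 95% interval of -0.19 to 0.14. LDHA reads made up 17.7% to 21.5% of LDHA and LDHB reads in the Caco-2 libraries and 97.8% to 100% in the HepG2 libraries. This is a share of reads and is not corrected for length. The mean share was 19.0% ± 1.22 (SD, n = 8) in Caco-2 and 99.1% ± 0.808 (SD, n = 8) in HepG2, and the difference of 80.2 percentage points had an exact two-sided permutation p of 0.00016, the smallest these 8 against 8 libraries allow, and 0.00062 after adjustment over the 4 isozyme shares tested. Every HepG2 library lay above every Caco-2 library in all conditions.

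**Figure D1:**
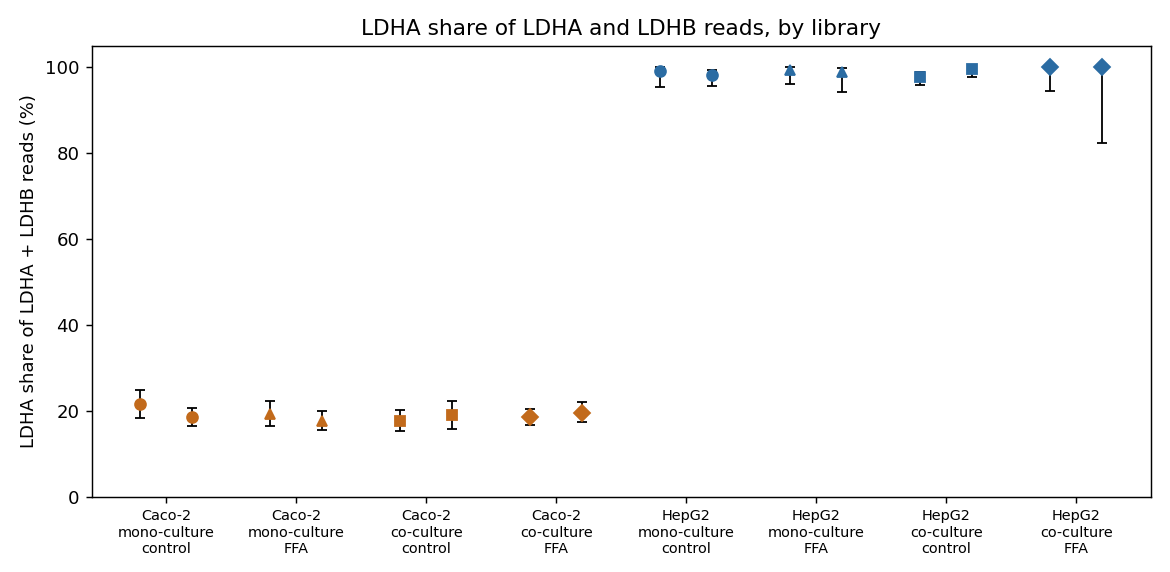
LDHA reads as a percentage of LDHA and LDHB reads (vertical axis) in each library, 2 points per group, with exact 95% binomial intervals that cover counting error only. The 8 Caco-2 points lie between 17.7% and 21.5%, and the 8 HepG2 points lie between 97.8% and 100%.

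Other members were mostly lower in HepG2 than in Caco-2. Averaged over the 4 conditions, 7 of 10 members differed between the lines, whereas 30.3% of all 17544 genes tested did so. Of these members, 6 were lower in HepG2 (17.9% of all genes) and 1 was higher (12.5% of all genes). All 10 members averaged 20 CPM or more, and a larger share of genes passed among those with more reads. At a mean of at least 10 CPM, 8 of 10 members passed, beside 4244 of 8543 genes. With edgeR on the recovered reads 8 of 10 passed, beside 66.9% of the genes edgeR tested. The median log2 difference of the 10 members was -0.40, against -0.16 for all genes tested. Mitochondrial reads, which were more frequent in HepG2, were part of every total. The mean summed share of the members was also lower in HepG2 with mitochondrial and ribosomal RNA reads left out of the totals, as given with the summed shares.

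TPI1, which interconverts the triose phosphates, ranged from 765 to 1067 CPM in Caco-2 (median 813 CPM) and from 279 to 517 CPM in HepG2 (median 372 CPM). No library of one line reached the range of the other, and the averaged log2 difference was -1.24 ± 0.098 (SE; limma adjusted p = 2.9e-07). PKM, the muscle-type pyruvate kinase that makes pyruvate and ATP, ranged from 87.5 to 151 CPM in Caco-2 (median 126 CPM) and from 39.5 to 80.6 CPM in HepG2 (median 55.5 CPM). Its ranges were also separate, at a log2 difference of -1.06 ± 0.16 (SE; limma adjusted p = 1.5e-04). PKM rested on 266 reads in all HepG2 libraries together.

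GAPDH, the dehydrogenase that yields NADH, also had separate ranges. It ranged from 3267 to 4053 CPM in Caco-2 (median 3722 CPM) and from 2131 to 2964 CPM in HepG2 (median 2541 CPM). Its log2 difference was -0.55 ± 0.043 (SE; limma adjusted p = 2.3e-07). GAPDH is often used as a reference gene for normalisation, and here it was lower in every HepG2 library.

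ENO1, the enolase that forms phosphoenolpyruvate, was the only member higher in HepG2. It ranged from 225 to 450 CPM in Caco-2 (median 290 CPM) and from 368 to 659 CPM in HepG2 (median 468 CPM), with ranges that overlapped. The averaged log2 difference was 0.68 ± 0.12 (SE; limma adjusted p = 6.6e-04). In mono-culture control alone, ENO1 was 413 and 298 CPM in Caco-2 and 413 and 368 CPM in HepG2. There the log2 difference was 0.15, with a 95% interval of -0.38 to 0.68.

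PGK1 and GPI differed by less and had overlapping ranges. PGK1, which makes the first ATP of the pathway, had a log2 difference of -0.37 ± 0.13 (SE; limma adjusted p = 0.041), and GPI, which isomerises glucose phosphate, had -0.43 ± 0.14 (SE; limma adjusted p = 0.032). These were the less stable calls: over 27 other settings, each leaving out a library or changing a processing step, PGK1 passed in 14 and GPI in 16, whereas LDHB, TPI1, PKM, GAPDH and ENO1 passed in all 27. ALDOA, the aldolase that splits fructose bisphosphate, had a log2 difference of -0.21 ± 0.080 (SE; limma adjusted p = 0.061). PGAM1, the mutase before enolase, had -0.20, with a 95% interval of -0.66 to 0.26. Neither passed the threshold.

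In mono-culture control alone, 4 members were lower in HepG2 (GAPDH, TPI1, PKM and LDHB), compared with 5.77% of all genes. The other members but ENO1 also had log2 differences below 0 there, from -0.40 for LDHA to -1.09 for PGAM1, and did not pass.

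**Figure D2:**
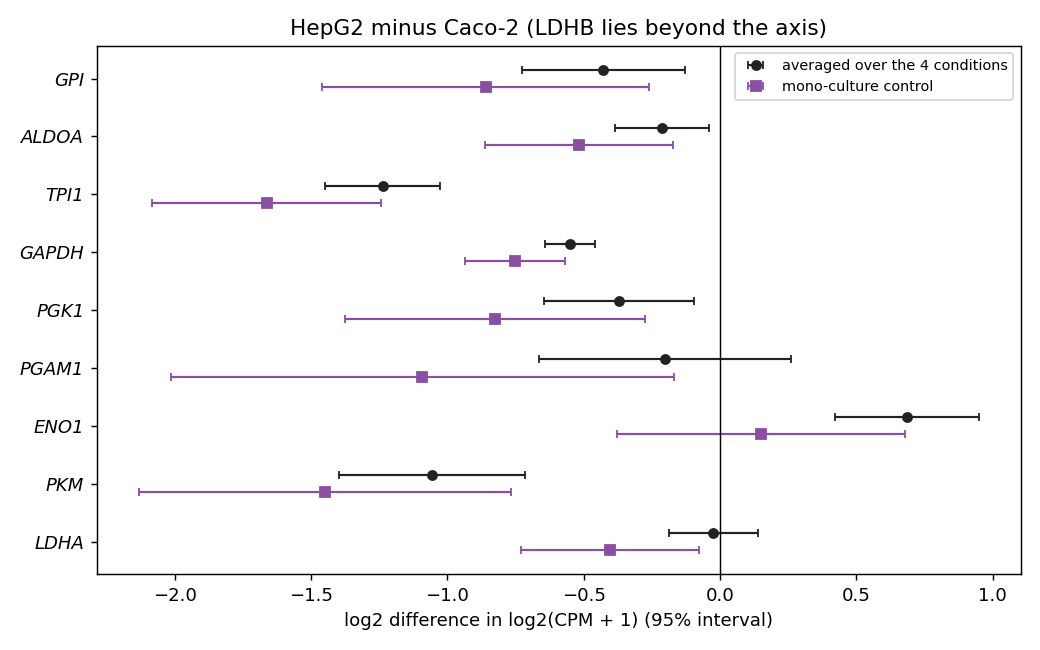
Log2 difference of HepG2 from Caco-2 on the log2(CPM + 1) scale (horizontal axis) with 95% intervals for 9 members, averaged over the 4 conditions (circles) and in mono-culture control alone (squares). LDHB, at -8.92, lies beyond the axis. TPI1, PKM and GAPDH lie to the left of 0 in both, and ENO1 lies to the right.

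**Figure D3:**
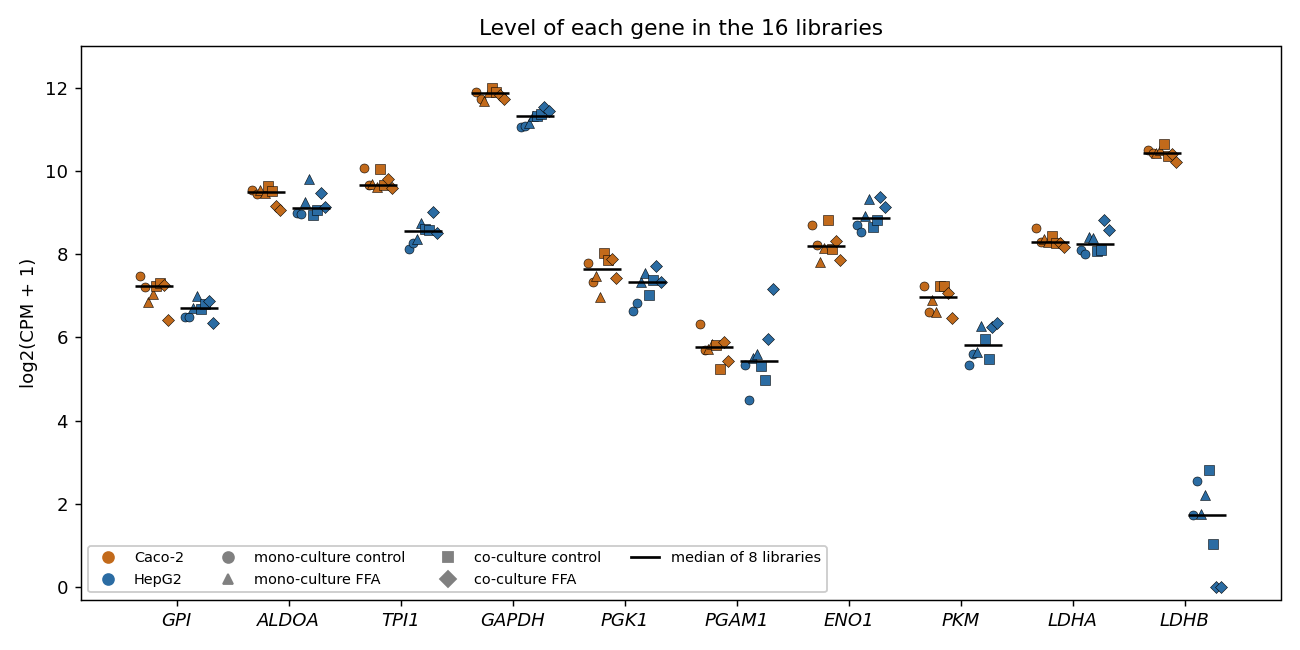
Level of each of the 10 members on the log2(CPM + 1) scale (vertical axis) in the 16 libraries, coloured by line and shaped by condition, with the median of the 8 libraries of a line as a bar. LDHB stands apart between the lines, TPI1, PKM and GAPDH have separate ranges, and LDHA, PGAM1 and ALDOA overlap.

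Other isozymes of the same steps added few reads to those of the members, apart from ALDOC in Caco-2. PKLR, the liver pyruvate kinase, took a mean of 0.729% of PKM and PKLR reads in Caco-2 and 3.09% in HepG2, on 7 and 11 reads (exact permutation p = 0.17, adjusted p = 0.33, 8 against 8 libraries). ENO2 and ENO3 took a mean of 1.12% of enolase reads in Caco-2 and 1.97% in HepG2 (exact permutation p = 0.33, adjusted p = 0.43). The difference of these shares between the lines could not be resolved at this depth. ALDOC, the brain-type aldolase, ranged from 76.4 to 131 CPM in Caco-2 and from 0 to 13.6 CPM in HepG2 (log2 difference -3.90, limma adjusted p = 1.5e-05). It held 445 reads in Caco-2, beside 3238 for ALDOA, and 34 in HepG2, beside 2680 for ALDOA. BPGM, which makes bisphosphoglycerate, was also lower, at -1.77 (limma adjusted p = 0.019).

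The neighbouring pathway genes were read from 7 lists of 86 names, of which 70 genes were tested between the lines. Of these, 29 (41.4%) passed, 10 higher and 19 lower in HepG2, beside the 30.3% of all genes. Among 12 tested genes of the entry and commitment steps, 1 was higher and 5 were lower, led by the phosphofructokinase genes PFKP (-3.57 on the log2 scale) and PFKM (-3.17), whereas GCKR, which binds glucokinase, was higher (2.67). All 3 were at low levels. Medians were 15.7 CPM for PFKP and 8.71 CPM for PFKM in Caco-2, and 6.50 CPM for GCKR in HepG2. PFKL, another phosphofructokinase gene, did not pass. Its mean was 3.34 CPM on 16 reads in Caco-2 and 4.90 CPM on 26 reads in HepG2.

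Of 8 tested carriers of glucose and lactate, 3 were higher and 2 lower in HepG2. SLC2A3, the high-affinity glucose carrier GLUT3, had a median of 58.5 CPM in Caco-2 and 0 in HepG2 (log2 difference -5.34), whereas SLC2A2, the hepatic carrier GLUT2, had medians of 0 and 9.51 CPM (2.28). SLC16A3, a lactate exporter, had medians of 0.515 CPM in Caco-2 and 7.76 CPM in HepG2 (2.41). In the gluconeogenesis and glycogen list, 3 of 14 tested genes were higher and 1 lower. PCK2, the mitochondrial phosphoenolpyruvate carboxykinase, ranged from 7.42 to 33.9 CPM in Caco-2 and from 144 to 273 CPM in HepG2 (3.17, limma adjusted p = 7.3e-10). SLC37A4, the glucose phosphate carrier, was lower (-2.53), and PGM1, a phosphoglucomutase, was higher (1.64).

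Around pyruvate entry to mitochondria, 2 of 13 tested genes were higher and 3 lower. MPC2, a subunit of the mitochondrial pyruvate carrier, ranged from 356 to 535 CPM in Caco-2 and from 91.0 to 148 CPM in HepG2 (-1.86). MPC1, another subunit of the carrier, was higher in HepG2 (0.62, limma adjusted p = 0.0021). Its mean was 92.7 CPM in Caco-2 and 140 CPM in HepG2. The phosphatases PDP2 (-1.80) and PDP1 (-0.85) were lower in HepG2 and at low levels. In the pentose phosphate branch, TALDO1 (-0.46) and TKT (-0.34) were lower, and the other 5 did not pass. In the low-oxygen response list, 1 of 9 tested genes was higher and 4 were lower, led by ADM (-3.81), DDIT4 (-2.55) and ANKRD37 (-2.15).

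Within each line, no member passed the test for FFA or co-culture. In Caco-2, 0 of 10 members passed in any of the 7 contrasts or the F-test over the 4 groups (limma), where 0.00647% of 15454 genes passed for FFA in mono-culture, 0% for FFA in co-culture and averaged, 0.0971% for co-culture without and with FFA, 0.453% for co-culture averaged, 0% for the interaction and 0.155% in the F-test. In HepG2, 0 of 10 passed as well, where 0.0762% of 14430 genes passed for FFA averaged over culture and 0% in each other contrast and the F-test. At an unadjusted p under 0.05, 0 to 3 members per contrast were counted in Caco-2, where 4.85% to 11.8% of all genes were, and 0 to 6 in HepG2, where 2.61% to 15.9% were. The highest counts were for FFA averaged over culture, with 3 of 10 members in Caco-2 (4.85% of genes) and 6 of 10 in HepG2 (13.8% of genes). With edgeR on the recovered reads, ENO1 passed for FFA averaged over culture in HepG2 (log2 difference 0.36, adjusted p = 0.038), which is 1 of 10 members beside 13.3% of the genes edgeR tested, and no other member passed in either line.

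In HepG2, the members had higher values with FFA than without, which did not pass the test. Apart from LDHB, 9 of 9 members had an averaged log2 difference above 0, whereas 62.4% of genes averaging 20 CPM or more did so. The median over the 10 members was 0.46, against 0.15 for those genes and -0.07 for all genes tested. Scaling changed the sign of some: with median-ratio size factors, which moved the median of all genes to -0.25, 6 of 9 were above 0 and GAPDH, TPI1 and GPI were below it.

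ENO1 and LDHA were highest in the FFA libraries of HepG2. Control libraries held ENO1 at 413 and 368 CPM in mono-culture and 404 and 450 CPM in co-culture, and FFA libraries at 485 and 644 CPM in mono-culture and 659 and 564 CPM in co-culture. All 4 FFA libraries lay above all 4 control libraries, and the averaged log2 difference was 0.52, with a 95% interval of 0.23 to 0.80 (limma adjusted p = 0.17). LDHA was 274 and 257 CPM in mono-culture control, 269 and 272 CPM in the co-culture controls, 342 and 335 CPM in mono-culture FFA and 449 and 383 CPM in co-culture FFA. The FFA and control libraries were again separate, at 0.48, with a 95% interval of 0.24 to 0.73 (limma adjusted p = 0.16).

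ALDOA and PGAM1 also had separate FFA and control libraries in HepG2. ALDOA was 489 to 536 CPM in the 4 control libraries and 564 to 895 CPM in the 4 FFA libraries, at a log2 difference of 0.43 with a 95% interval of 0.11 to 0.75 (limma adjusted p = 0.24). PGAM1 was 21.5 to 39.5 CPM in control and 44.8 to 141 CPM in FFA, and its value of 141 CPM in a co-culture FFA library stood on 7 reads. Its log2 difference was 1.02, with a 95% interval of 0.25 to 1.79 (limma adjusted p = 0.24). Altogether 4 of 9 members averaging 20 CPM or more had all FFA libraries above all control libraries, compared with 11.8% of genes at that level.

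In mono-culture, which held neither of the shallowest libraries, all 9 such members were higher in both FFA libraries than in both control libraries of HepG2, compared with 32.4% of genes. In co-culture the count was 6 of 9, against 37.8% of genes. Log2 differences in mono-culture ran from 0.17 for GAPDH to 0.71 for PGK1. PGK1 was 97.5 and 112 CPM in mono-culture control and 160 and 186 CPM in mono-culture FFA (95% interval 0.17 to 1.26, limma adjusted p = 0.71). PKM was 39.5 and 47.9 CPM in mono-culture control against 49.5 and 76.4 CPM in mono-culture FFA, on 108 reads in the 4 libraries. The log2 difference of PKM was 0.49, with a 95% interval of -0.29 to 1.28, and no member passed.

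In Caco-2, the members had lower values with FFA, which did not pass the test either. All 10 had an averaged log2 difference below 0, and 0 of 10 were above it, whereas 51.4% of genes averaging 20 CPM or more were. The value for PGAM1 turned positive, at 0.07 to 0.11, when Caco-2 co-culture control replicate 1, co-culture FFA replicate 2 or mono-culture control replicate 1 was left out. The median over the members was -0.21, against 0.04 for all genes tested, and the members ran from -0.05 for PGAM1 to -0.43 for ENO1. ENO1 was 413 and 298 CPM in mono-culture control, 450 and 277 CPM in the co-culture controls, 225 and 281 CPM in mono-culture FFA and 319 and 232 CPM in co-culture FFA. Its control and FFA libraries overlapped, and the 95% interval was -0.78 to -0.07 (limma adjusted p = 0.83).

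ALDOA had the lowest unadjusted p for FFA in Caco-2, in co-culture, at 790 and 729 CPM without FFA and 565 and 531 CPM with FFA, a log2 difference of -0.47 with a 95% interval of -0.72 to -0.22 (limma adjusted p = 0.86). In mono-culture it was 744 and 692 CPM without FFA and 744 and 702 CPM with FFA, a log2 difference of 0.01. The interaction of FFA and culture had an adjusted p of 0.82 (limma) for ALDOA. In mono-culture 2 of 10 members, ENO1 and GPI, had both FFA libraries below both control libraries (12.6% of genes), in co-culture 4 of 10 did (22.8% of genes), and over both cultures 0 of 10 did (1% of genes).

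The FFA differences of the lines were compared in a fit of all 16 libraries. Apart from LDHB, 9 of 9 members had a higher FFA difference in HepG2 than in Caco-2, whereas 55.3% of genes averaging 20 CPM or more did so. The value for GAPDH was below 0 with median-ratio size factors and with edgeR, and that for PKM was below 0 after thinning to the shallowest library. At an unadjusted p under 0.05 there were 8 of 10 members, against 11.4% of all genes. After adjustment 0 of 10 passed in limma, where 0.0912% of all genes passed, and ENO1 alone passed with edgeR on the recovered reads (adjusted p = 0.017), beside 7.92% of the genes edgeR tested. The difference between the lines was 0.66 for ALDOA (limma adjusted p = 0.12), 0.62 for LDHA (0.12) and 0.94 for ENO1 (0.14) on the log2 scale. Over 26 other settings LDHA passed in 8, ALDOA in 2, ENO1 in 2 and PGAM1 in 1, and apart from the edgeR call of ENO1 all of these left out 1 library.

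**Figure D4:**
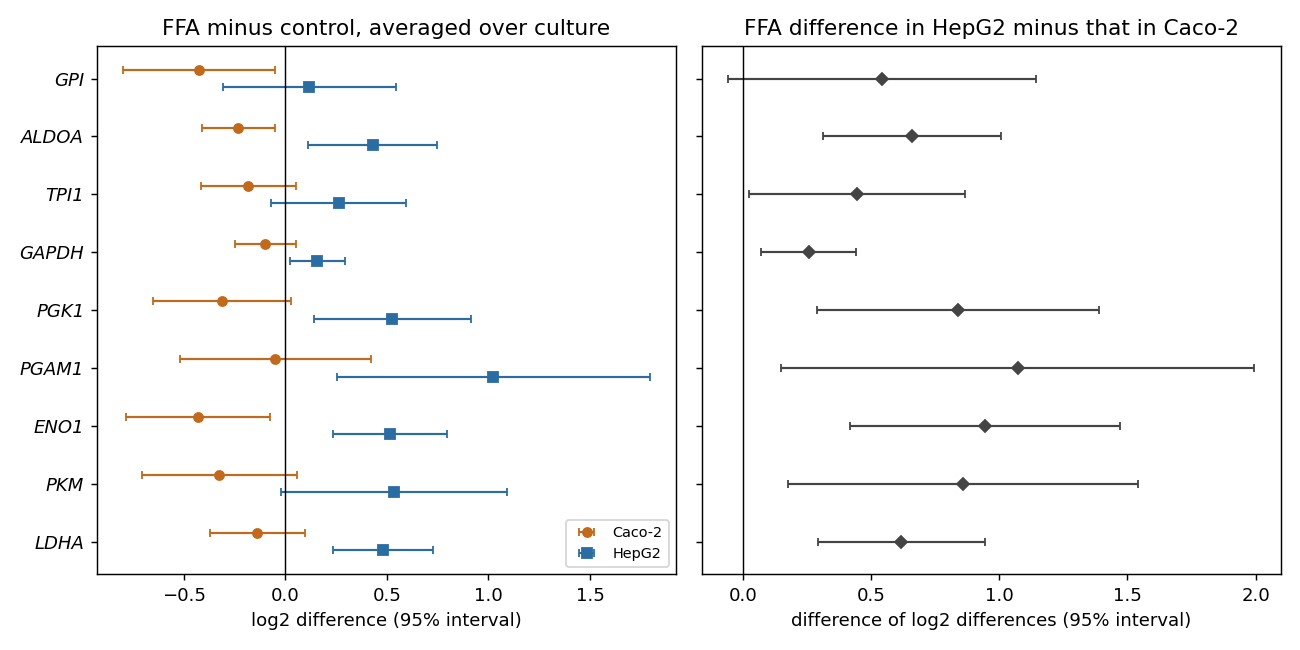
Log2 difference of FFA from control averaged over culture in each line (left) and the difference between the lines (right), on the log2(CPM + 1) scale with 95% intervals, for the 9 members other than LDHB. Caco-2 values lie to the left of 0 and HepG2 values to the right of 0, and 8 of the 9 intervals of the difference lie above 0 before adjustment.

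Co-culture differences had mixed signs, and none passed. In Caco-2, 5 of 10 members had an averaged log2 difference above 0, whereas 58% of genes averaging 20 CPM or more did so. PGK1 had the largest of these values, at 219 and 159 CPM in mono-culture control, 178 and 124 CPM in mono-culture FFA, 262 and 232 CPM for co-culture without FFA and 236 and 170 CPM in co-culture FFA. Its log2 difference was 0.41, with a 95% interval of 0.07 to 0.76 (limma adjusted p = 0.34).

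In HepG2, 8 of 10 members had an averaged co-culture difference above 0, against 58.5% of genes averaging 20 CPM or more. GAPDH was 2131 and 2145 CPM in mono-culture control, 2271 and 2532 CPM in mono-culture FFA, 2549 and 2624 CPM for co-culture without FFA and 2964 and 2780 CPM in co-culture FFA. Every co-culture library lay above every mono-culture library, at a log2 difference of 0.27 with a 95% interval of 0.13 to 0.40 (limma adjusted p = 0.49). After quantile normalization GAPDH passed this test. Without FFA, 4 of 9 members had both co-culture libraries above both mono-culture libraries, compared with 25.8% of genes. Between the lines, no member had a co-culture difference that passed (limma), where 0.0969% of all genes did. At an unadjusted p under 0.05, 2 of 10 members were counted, GAPDH and LDHB, beside 9.72% of genes. LDHB was near the floor of detection in HepG2, so its value was not read.

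The summed reads of the 10 members took 0.676% to 0.890% of all reads in the Caco-2 libraries (mean 0.775%) and 0.385% to 0.576% in the HepG2 libraries (mean 0.466%), and without LDHB the Caco-2 range was 0.558% to 0.731%. With mitochondrial and ribosomal RNA reads left out of the totals the means were 0.803% in Caco-2 and 0.512% in HepG2. In HepG2, the shares were 0.387% and 0.385% in mono-culture control, 0.444% and 0.461% in co-culture control, 0.440% and 0.527% in mono-culture FFA and 0.576% and 0.512% in co-culture FFA. Both mono-culture control libraries were below the other 6. Mitochondrial reads took a mean of 10.3% in mono-culture control, 9.70% in mono-culture FFA, 7.53% in co-culture control and 7.63% in co-culture FFA. As a share of non-mitochondrial reads the members took 0.433% and 0.428% in mono-culture control and 0.486% to 0.622% in the other 6 libraries.

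**Figure D5:**
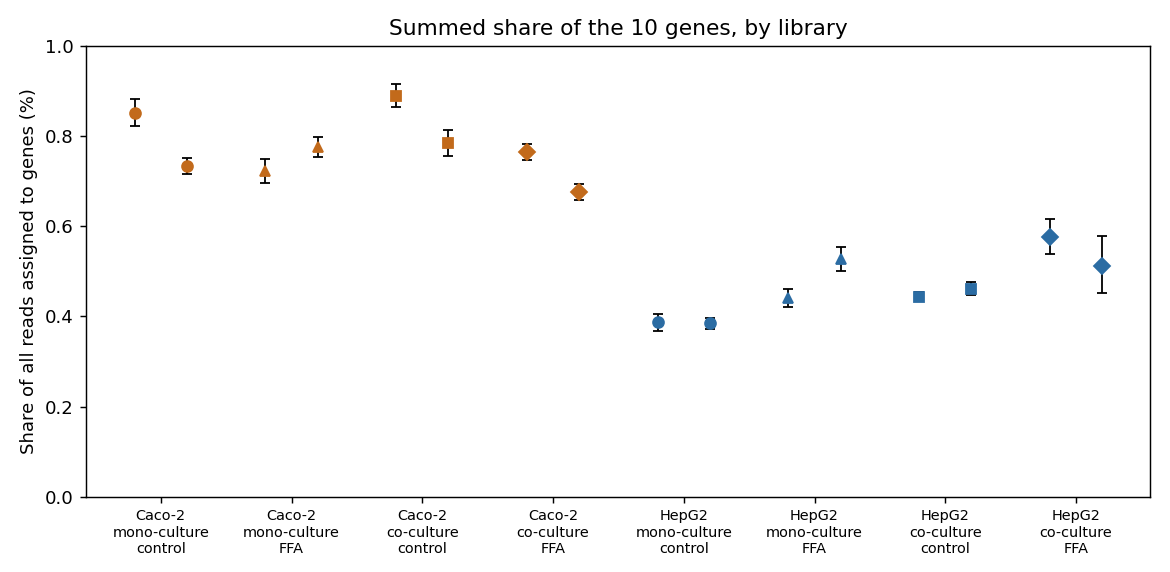
Reads of the 10 members as a percentage of all reads assigned to genes (vertical axis) in each library, 2 points per group, with exact 95% binomial intervals that cover counting error only. HepG2 mono-culture control is lowest, at 0.387% and 0.385%, and Caco-2 co-culture control replicate 1 is highest, at 0.890%.

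In Caco-2, the shares were 0.852% and 0.733% in mono-culture control, 0.890% and 0.784% in co-culture control, 0.722% and 0.776% in mono-culture FFA and 0.764% and 0.676% in co-culture FFA. Members also differed in the same direction between replicates of a group. All 10 were higher in replicate 1 than in replicate 2 of mono-culture control and of co-culture FFA, 9 of 10 were in co-culture control, and 5 of 10 were in mono-culture FFA. Since the members share their libraries in this way, a count of members in 1 direction is not a count of independent genes.

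No other gene of the 7 pathway lists passed within a line in limma. The 65 genes tested in Caco-2 gave 4 to 13 at an unadjusted p under 0.05 per contrast, with 13 for co-culture without FFA (10.3% of all genes) and for co-culture averaged (11.8%). The 59 tested in HepG2 gave 1 to 16, with 16 for FFA in co-culture (15.9% of all genes). With edgeR on the recovered reads, which tested 29 of the list genes for Caco-2 and 22 for HepG2, 4 genes passed for co-culture averaged in Caco-2 (8.47% of genes edgeR tested), the low-oxygen response genes ANKRD37 and DDIT4, SLC2A3 and the pyruvate carrier subunit MPC1, and PCK2 passed for FFA averaged in HepG2 (13.3%). DDIT4, SLC2A3 and PCK2 passed for co-culture with FFA in Caco-2 (3.85%). DDIT4 and SLC2A3 also passed in the Caco-2 F-test (5.09%), and DDIT4 in the HepG2 F-test (8.76%).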

How the data were processed

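PCR-cDNA Nanopore libraries of Caco-2 and HepG2 cells were analysed (16 libraries, 8 groups of 2). Per the submitters' processing notes, reads were aligned with minimap2 2.22 to GRCh38, and the counting tool is not given in the sources used here. The deposited values are named TPM, but in each library they were whole multiples of 1 step for 99.6% to 100% of values (within 0.1 read), so they were treated as CPM made by the authors, without length correction, and whole reads were recovered. Library totals were 49634 to 1657430 reads, and intervals and the floor of 3 reads cover counting error only.

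Genes averaging 1 CPM or more in any group were tested on log2(CPM + 1) with limma 3.58.1 (trended prior, R 4.3.3) and Benjamini-Hochberg adjustment, 15454 in Caco-2, 14430 in HepG2 and 17544 over both lines, at an adjusted p threshold of 0.05. The added 1 shrinks fold changes of low genes on this scale. The value for LDHB also counts 0 reads in the shallow HepG2 co-culture FFA libraries as 0 CPM, whatever their depth. Each line was fitted with 4 group means and 7 contrasts, and the lines were compared in a fit with 8 group means. edgeR 4.0.16 (quasi-likelihood test) on the recovered reads, other scalings, filters, pseudocounts and leaving out each library were alternatives. Shares of isozyme reads were compared with an exact permutation test in scipy 1.17.1. Of the 4 shares tested, 1 is not reported here. Scripts were tested on simulated data.

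All 10 members are named. Of each pathway list, the 3 genes with the largest absolute log2 difference among those passing between the lines are named, and genes passing within a line (none in limma, so those passing with edgeR were named after their values were seen). PFKL and MPC1 are also named between the lines, beside PFKP, PFKM and MPC2, after their values were seen. Members and lists were chosen with earlier results of these data known. Gene positions are from GENCODE 44, which held 99.5% of the IDs. Deviations of same-numbered replicates correlated above 0.1 in 0 of 6 pairs in each line over all genes, and in 4 of 6 pairs in Caco-2 and 3 of 6 in HepG2 over genes averaging 100 CPM or more. Since not every pair did, the numbers were not used as pairs.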

Additional observations from a re-analysis of the deposited data

Results flagged for a closer look

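FFA differences of the lines were compared in a test of the difference itself. The FFA difference in HepG2 exceeded that in Caco-2 for 8 of 10 members at an unadjusted p under 0.05, beside 11.4% of all genes. On the log2 scale it was larger by 0.26 for GAPDH, 0.66 for ALDOA, 0.94 for ENO1, 0.86 for PKM, 0.62 for LDHA, 0.84 for PGK1, 0.44 for TPI1 and 1.07 for PGAM1. None passed after limma's Benjamini-Hochberg adjustment over all genes, the lowest adjusted p being 0.12. The values for GAPDH and PKM changed sign under other settings, as given below. Members share their libraries, so 8 of 10 is not a count of independent genes. Groups of 2 were too small for a test of single libraries.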

How the results depend on the processing

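Counts of members passing follow. With a looser rule (limma's unadjusted p under 0.05 and a fold of at least 1.2, the study's thresholds for its analysis of variance but not its test) they were 1 for FFA in co-culture, 1 for co-culture with FFA, 2 for FFA averaged, 1 for co-culture averaged, 1 for the interaction and 2 in the F-test in Caco-2. In HepG2 they were 4 for FFA in mono-culture, 3 for FFA in co-culture, 1 for co-culture without FFA, 5 for FFA averaged, 1 for co-culture averaged and 5 in the F-test. Between the lines they were 9 in mono-culture control (3841 of 17544 genes), 7 for the FFA difference (1965 genes) and 1 for the co-culture difference. That 1 was LDHB, which was near the floor of detection in HepG2, so its value was not read. For FFA averaged, 723 of 15454 genes passed this rule in Caco-2 and 1953 of 14430 in HepG2. Per contrast, 4.85% to 11.8% of genes in Caco-2 and 2.61% to 15.9% in HepG2 had limma's unadjusted p under 0.05 alone. For the co-culture difference it was 9.72%. After quantile normalization 1 passed in HepG2 for co-culture with FFA, co-culture averaged and the F-test (GAPDH). With edgeR 1 passed for FFA averaged in HepG2 (13.3% of genes edgeR tested). Between the lines 9 passed in mono-culture control (49%) and 1 for the FFA difference (7.92%). The line comparison gave 4 in mono-culture control alone instead of 7, and that comparison gave 7 with a mean of at least 10 CPM, 7 with median-ratio size factors and 8 without both HepG2 co-culture FFA libraries. Leaving out 1 library gave 0 to 2 in HepG2 for FFA in co-culture and for FFA averaged (2, LDHA and PGAM1, without HepG2 co-culture FFA replicate 1), 0 to 1 for co-culture with FFA, 5 to 8 between the lines, 3 to 8 in mono-culture control, 0 to 3 for the FFA difference and 0 to 1 for the co-culture difference. Shares of all genes are not given here for leaving out 1 library or for the quantile calls of GAPDH. Those counts are not read as results about the members. With a replicate block the counts were 7 between the lines, 4 in mono-culture control and 0 within lines, so no count changed. The labels do not say whether same-numbered libraries shared more than a number.

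Some FFA differences in HepG2 changed sign: GAPDH -0.13 (median-ratio) and -0.026 (edgeR), PKM -0.32 (thinned to 49634 reads), TPI1 -0.026 (median-ratio), and GPI -0.11 (quantile), -0.17 (median-ratio), -0.000875 (edgeR) and -0.010 to 0.25 (leaving out 1 library). For the difference between lines, GAPDH was -0.022 (median-ratio) and -0.066 (edgeR) and PKM -0.22 (thinned). Leaving out 1 library moved PGAM1 in Caco-2 between -0.21 and 0.11 and LDHA between the lines from -0.069 to 0.018. The cause was not tested. With 2 libraries a group and as few as 49634 reads, low members such as PGAM1 and PKM were measured on few reads.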

Other observations

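In the pentose phosphate branch, which leaves glycolysis at glucose phosphate, 6 of 7 tested genes had an averaged FFA difference above 0 in HepG2. Their median was 0.49 on the log2 scale. Of all genes tested in HepG2, 47.2% were above 0, and of those averaging 20 CPM or more 62.4% were. In Caco-2, 2 of 7 were above 0, with a median of -0.13. There 53.9% of all genes and 51.4% of those averaging 20 CPM or more were above 0. None passed the test in either line (limma).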
